A study of Mus musculus with 34 samples.

Results

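The naive pluripotency regulators described here were 10 genes: Pou5f1, Nanog, Sox2, Klf4, Klf2, Esrrb, Zfp42, Tfcp2l1, Prdm14 and Tbx3. They were followed through every region of the deposited count tables that overlapped the gene body (GENCODE M21 on GRCm38) extended by 10 kb on both sides. That rule gave 89 of the 248336 regions in the list shared by 3 of the tables, and 39 of the 96988 wider regions in the H3K27ac table of separate lines. The genes were taken by name and are 10 of 21938 protein-coding genes. Chromatin immunoprecipitation sequencing of H3K27ac, found at promoters and enhancers in use, and of H3K9me3, which marks heterochromatin, was available for 34 libraries in 12 groups.

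All cells were mouse embryonic stem cells grown in serum with LIF, the MEK inhibitor PD0325901 and the GSK3 inhibitor CHIR99021, fixed with formaldehyde and fragmented with MNase. In the first series, 3 separate lines of C57BL/6J (B6: 4-1, 4-4 and 5-1, replicates 1 to 3) and 3 of DBA/2J (D2: 2-9, 5-5 and 203, replicates 1 to 3) were profiled once per mark. In the second series, 1 line of each of 4 genotypes was profiled in repeated libraries: B6 5-1, D2 5-5, and a line of each congenic strain. Line QJ 6-1 is B6-13D2, written B6.D2-(rs30079041-rs51756099)/Bakr, a C57BL/6J background with a DBA/2J segment of chromosome 13. Line XE 2-4 is D2-13B6, the reciprocal strain, whose segment starts at rs29224292 and ends at rs51756099 in the series' design text and at rs13469455 in the sample labels. None of the 10 genes lies on chromosome 13. Each group had 3 libraries, except the repeated H3K9me3 groups of B6-13D2 and D2 with 2. Repeated libraries are technical repeats of 1 line, so their tests compare lines rather than genotypes, and their p-values measure the spread between libraries. The B6 5-1 and D2 5-5 lines appear in both series. The H3K27ac antibody was from abcam in the first series and from Cell Signaling Technology in the second, so H3K27ac levels were not compared across them.

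Pou5f1 (OCT4) and Sox2 encode partner transcription factors that bind joint sites at enhancers of pluripotent cells, and Nanog joins them at many of these sites. Klf4, Klf2, Tfcp2l1, Esrrb, Tbx3 and Prdm14 encode further DNA-binding regulators of the naive state. Klf4, Tfcp2l1 and Tbx3 respond to LIF signalling, and Klf2, Esrrb and Tfcp2l1 gain from inhibition of MEK or GSK3. Zfp42 (REX1) is a widely used marker of naive cells, and Prdm14 encodes a PR-domain protein that restrains FGF signalling and DNA methylation.

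Reference sequence (GRCm38, plus strand) is shown for the central 300 bases of 4 regions, 3 in which H3K27ac differed clearly between the lines and 1 that moved in opposite directions in a pair of contrasts. They are a region upstream of Tfcp2l1 (chr1:118620612-118620911), an intron of Tfcp2l1 (chr1:118663055-118663354), a region downstream of Sox2 (chr3:34663990-34664289) and a region upstream of Klf2 (chr8:72311126-72311425). Capitals mark the ESRRB motif TCAAGGTCA in the Tfcp2l1 intron and the octamer ATGCAAAT, the recognition sequence of OCT4, upstream of Klf2.

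Tfcp2l1 upstream: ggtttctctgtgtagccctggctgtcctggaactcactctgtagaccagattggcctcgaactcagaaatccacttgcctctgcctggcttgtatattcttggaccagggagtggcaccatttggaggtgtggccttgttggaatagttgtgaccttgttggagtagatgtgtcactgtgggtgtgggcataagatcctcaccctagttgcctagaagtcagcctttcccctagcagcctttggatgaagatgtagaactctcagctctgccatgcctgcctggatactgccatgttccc
Tfcp2l1 intron: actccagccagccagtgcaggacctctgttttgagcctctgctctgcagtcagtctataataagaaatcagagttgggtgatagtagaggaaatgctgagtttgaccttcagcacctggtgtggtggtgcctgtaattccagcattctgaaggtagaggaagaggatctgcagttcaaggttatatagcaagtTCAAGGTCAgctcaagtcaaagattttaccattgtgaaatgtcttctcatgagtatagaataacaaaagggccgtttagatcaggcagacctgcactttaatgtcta
Sox2 downstream: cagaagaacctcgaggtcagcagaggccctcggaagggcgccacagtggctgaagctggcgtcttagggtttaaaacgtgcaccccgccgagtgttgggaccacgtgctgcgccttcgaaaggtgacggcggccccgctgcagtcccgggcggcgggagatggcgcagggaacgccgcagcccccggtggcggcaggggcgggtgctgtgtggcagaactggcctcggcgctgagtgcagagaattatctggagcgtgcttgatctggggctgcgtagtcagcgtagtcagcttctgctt
Klf2 upstream: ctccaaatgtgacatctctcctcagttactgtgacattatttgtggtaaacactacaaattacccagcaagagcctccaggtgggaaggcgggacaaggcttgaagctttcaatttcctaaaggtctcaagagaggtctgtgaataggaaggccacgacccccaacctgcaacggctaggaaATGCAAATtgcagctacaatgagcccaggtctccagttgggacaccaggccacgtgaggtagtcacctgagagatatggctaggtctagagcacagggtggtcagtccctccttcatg

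Both strands were searched for 4 motifs, the octamer ATGCAAAT, the SOX motif CTTTGTT, the ESRRB motif TCAAGGTCA and the KLF motif GGGTGTGGC. The search covered 300-base centres of the 51 shared-list regions of the 10 genes that were called in any contrast, for H3K27ac or for H3K9me3. The octamer lay in 1 of the 51, the SOX motif in 6, the ESRRB motif in 2 and the KLF motif in 0. Over all 216549 region centres of that length, the shares were 3.27%, 9.66%, 1.42% and 2.19%. RefSeq promoter windows (250 bases before to 50 after a start, GRCm38.p6) were matched for 8 of the 10 genes, in 11 windows. Across them 1 octamer was found and no other motif, where 1.74% of all 32851 promoter windows hold the octamer. That octamer lies upstream of Zfp42 (chr8:43307010-43307259, minus strand, 250 bases before the start) and is shown in capitals as its reverse complement.

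Zfp42 promoter: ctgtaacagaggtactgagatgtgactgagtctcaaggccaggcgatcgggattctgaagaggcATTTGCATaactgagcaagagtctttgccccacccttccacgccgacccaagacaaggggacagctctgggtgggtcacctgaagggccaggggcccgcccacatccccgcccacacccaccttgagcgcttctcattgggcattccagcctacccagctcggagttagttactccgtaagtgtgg

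The total count per library was 15444270 to 18272793 for H3K27ac in separate lines and 8735674 to 11543469 in repeated libraries, against 1487862 to 2559262 and 1538145 to 2185977 for H3K9me3. Precision was therefore lower for H3K9me3 at the 10 genes. Values are CPM, counts relative to a library's TMM-scaled total, for a region or for a gene window, the sum over all regions of a gene. In the repeated H3K27ac series, 1 pair of libraries in each line differed by less than sampling noise and was counted as 1 sample, which left 2 samples per line. D2-13B6 replicate 1 stood apart from the other libraries of its line in both marks. A region or window was called where the Benjamini-Hochberg adjusted p of edgeR's quasi-likelihood F-test over the whole table was under 0.05. Since the cells were profiled in bulk, fewer cells of one type and a lower level per cell cannot be told apart.

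H3K27ac was high at 9 of the 10 genes and lower at Prdm14. In the repeated libraries, Nanog had the highest density of the 10 at 25.5 CPM per kb of region, averaged over the 8 samples. Klf2 (20), Pou5f1 (19.3), Tbx3 (19.1), Sox2 (17.5), Zfp42 (16.0), Tfcp2l1 (15.8) and Esrrb (15.0 CPM per kb) followed. Klf4 at 8.45 and Prdm14 at 5.76 CPM per kb came last. Within each of the 4 lines both Nanog samples (23.3 to 27.2 over all lines) were above every sample of the other 9 genes, and Klf4 (6.94 to 9.72) was above Prdm14 (4.66 to 7.67) and below the other 8. The order between them changed with the line. Klf2 came second in B6 (18.7 and 20.7) and B6-13D2 (25.1 and 24.2 CPM per kb), but in D2 its samples, at 17.5 and 17.1, lay below those of Pou5f1, Tbx3 and Sox2. Over all lines, neighbours in the order from Klf2 to Esrrb overlapped. Among 20430 protein-coding gene windows with a region, 8 of the 10 lay at or above the 96.6th percentile of this density. Klf4 was at the 82.2nd and Prdm14 at the 66.1st percentile. In separate lines Nanog was at the 99.7th percentile of 17939 windows, Klf4 at the 87.9th, Zfp42 at the 89.2nd and Prdm14 at the 59.3rd.

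H3K9me3 was sparse at the same genes. The 10 windows averaged 0.841 to 2.27 CPM per kb in separate lines and 1.62 to 2.93 in repeated libraries. The median over all gene windows was 2.47 to 2.74 CPM per kb in the separate-line libraries and 3.55 to 3.66 in the repeated ones. Prdm14, the gene with the least H3K27ac, had the highest H3K9me3 percentile in separate lines, 40.8, and Pou5f1 the lowest, 2.21. In repeated libraries Sox2 and Klf4 were highest, at the 34.3rd and 34.2nd percentiles, and Klf2 was lowest at 3.29. All 10 lay under the 50th percentile in both series.

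**Figure D1:**
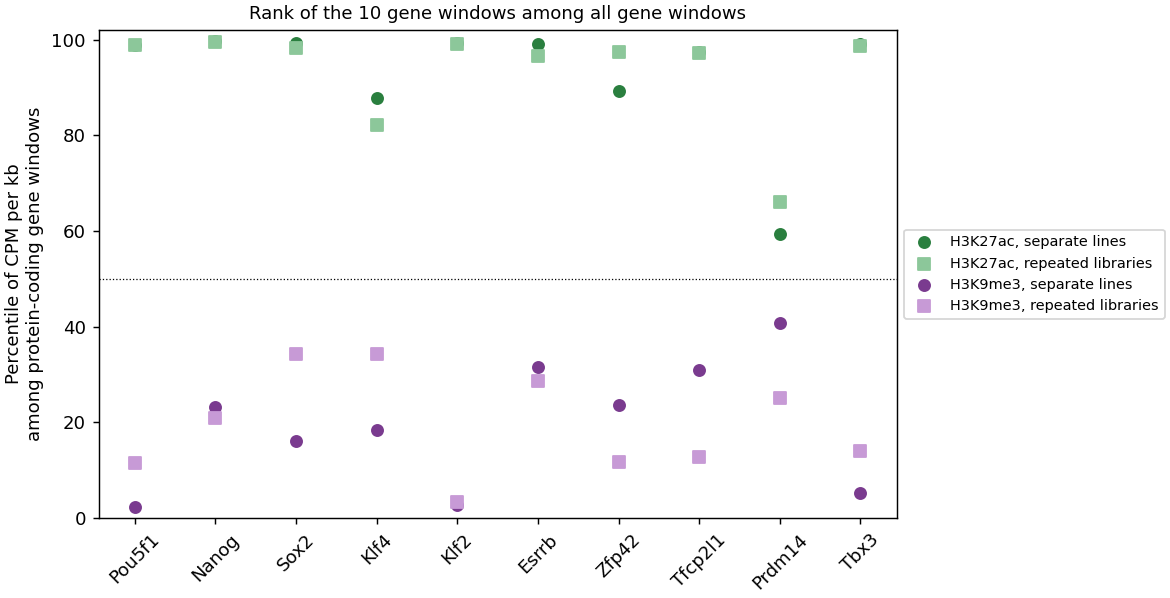
Percentile of the density of H3K27ac (green) and H3K9me3 (purple) in each of the 10 gene windows among all protein-coding gene windows, for separate lines (circles) and repeated libraries (squares), with the 50th percentile dotted. H3K27ac lies above and H3K9me3 below the 50th percentile at every gene, and Prdm14 has the smallest gap between the marks in separate lines.

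Within the windows, H3K27ac was not always greatest at the start of the gene. The start region held 75.0% of the window's H3K27ac at Klf4, 72.5% at Pou5f1 and 50.5% at Sox2. At Nanog, a region centred 4.51 kb upstream (chr6:122701362-122704594) held 53.4% and the start region 33.3%. At Tfcp2l1, an intron region centred 18.4 kb into the gene (chr1:118640698-118652023) held 52.1% and the start region 25.2%. At Klf2, a region 13.6 kb downstream of the start held 46.5%, against 40.3% at the start. Esrrb had its largest region 142 kb into the gene (27.5%), and a region over an internal start at 112 kb held 15.6%. Tbx3 was split between a region over a coding exon at 11.4 kb (41.1%) and the start (38.1%).

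In separate lines the question was how D2 cells differ from B6 cells across 3 lines each. Tfcp2l1, Esrrb and Pou5f1 had slightly less H3K27ac in D2, and no window was called higher. Of the 10 windows, 3 were called, all lower in D2. Over all gene windows 54.0% were called and 28.2% were called lower. The median log2 fold change of the 10 was -0.02, against 0.01 over all windows.

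For Tfcp2l1, a CP2-family factor downstream of LIF and STAT3, the window held 491, 466 and 481 CPM in the B6 lines and 438, 390 and 395 CPM in the D2 lines. The groups did not overlap, and the log2 fold change was -0.23 (SE 0.05, adjusted p = 0.000842, edgeR). Esrrb, an orphan nuclear receptor, held 614, 583 and 596 CPM in B6 and 547, 526 and 537 CPM in D2, a log2 difference of -0.16 (SE 0.04, adjusted p = 0.00483). All 3 D2 lines were below all 3 B6 lines. Pou5f1 held 192, 183 and 192 CPM in B6 and 172, 174 and 178 CPM in D2, a log2 difference of -0.11 (SE 0.04, adjusted p = 0.036). The Pou5f1 call was lost on leaving out B6 replicate 1 or 3 or D2 replicate 1 or 2 (adjusted p 0.0865 to 0.111). With scaling by library totals, which moved the median of all windows by 0.08, Esrrb was at -0.08 and Pou5f1 at -0.04 and neither was called, while Prdm14 was called at 0.14.

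Among single regions in the separate lines, 18 of 39 were called, 12 higher and 6 lower in D2, in every gene but Sox2 and Klf2. The DESeq2 test called 11, 9 higher and 2 lower. Over all regions 49.3% were called, 24.3% higher and 25.0% lower. These regions were wide, with a median of 4434 bp at the 10 genes against 1470 bp in the whole table, and the one over Klf2 covered 55992 bp with the neighbouring genes Gm10282 and Eps15l1. In the region 10.7 kb upstream of Tbx3, a T-box factor of the LIF response, H3K27ac was 47.6, 42.5 and 52.0 CPM in B6 and 59.4, 63.7 and 62.1 CPM in D2. Every D2 line was above every B6 line there, with a log2 fold change of 0.38 (SE 0.07, adjusted p = 1.82e-05). In the region over the end of Tfcp2l1, 56.4 kb from its start, values were 75.8, 77.3 and 72.9 CPM in B6 and 66.0, 51.8 and 54.5 CPM in D2, a log2 difference of -0.39 (SE 0.07, adjusted p = 1.21e-05). Esrrb moved both ways. Its intron regions at 74.7 and 94.3 kb were higher in D2 by 0.60 and 0.39 on the log2 scale, while the one at 104 kb was lower by a log2 difference of -0.21. Upstream regions of Prdm14 (5.45 kb, 0.44) and Klf4 (2.42 kb, 0.28) were higher in D2.

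**Figure D2:**
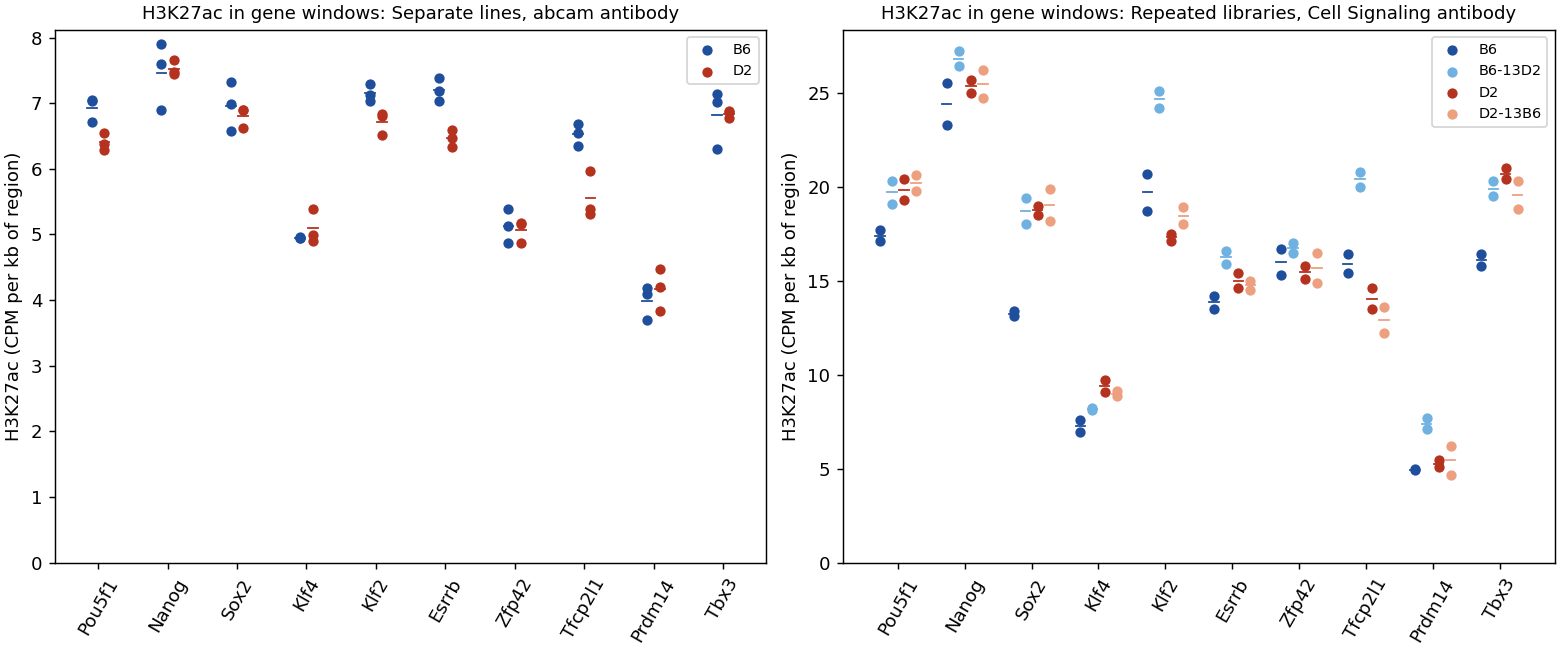
H3K27ac density (CPM per kb of region) in each of the 10 gene windows, with each point a sample and each bar the group mean, for separate lines (left) and repeated libraries (right). In separate lines B6 and D2 points lie close together at most genes, and in repeated libraries the B6-13D2 points of Klf2, Tfcp2l1, Prdm14, Esrrb and Nanog lie above those of every other line, as in 16.6% of all windows, by the least at Nanog, whose difference from B6 is below 0 under library totals.

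In repeated libraries, D2 5-5 against B6 5-1, the Sox2 window was higher in D2 with Klf4, Tbx3 and Pou5f1, and Klf2 was lower. Of the 10 windows 5 were called, 4 higher and 1 lower, where 45.8% of all windows were called and 24.0% were called higher. Fibroblast markers, genes of feeder cells, moved with this contrast: 4 of 6 were higher in D2. Their summed H3K27ac was 95.4 to 105 CPM in B6 and 149 to 155 CPM in D2, and their part in the calls by window or region was not tested. The median of the 10 was 0.10, against 0.00 over all windows. Sox2, the HMG-box partner of OCT4, had 150 and 153 CPM in B6 and 217 and 212 CPM in D2. Its samples did not overlap, and the log2 fold change was 0.50 (SE 0.07, adjusted p = 1.29e-05, edgeR). Klf4, a zinc-finger factor of the LIF response, had 66.0 and 72.0 CPM in B6 and 92.4 and 86.2 CPM in D2 (log2 fold change 0.38, SE 0.07, adjusted p = 0.000304). Tbx3 had 229 and 237 CPM in B6 and 304 and 296 CPM in D2 (0.37, SE 0.06, adjusted p = 0.000184). In both genes each D2 sample was above each B6 sample. Pou5f1 had 249 and 259 CPM in B6 and 299 and 283 CPM in D2 (0.20, SE 0.06, adjusted p = 0.0192). Klf2, a zinc-finger factor related to Klf4, had 414 and 457 CPM in B6 and 387 and 377 CPM in D2 (-0.19, SE 0.07, adjusted p = 0.0313). The last 2 calls were lost when a sample was left out: Pou5f1 without B6 replicates 1 and 2, D2 replicates 1 and 3 or D2 replicate 2 (adjusted p 0.0601 to 0.238), and Klf2 without B6 replicate 3, D2 replicates 1 and 3 or D2 replicate 2 (0.093 to 0.306). By scaling, DESeq2 size factors left 4 windows called, 3 higher and 1 lower, and library totals gave 6, 5 higher and 1 lower. With TMM scaling Pou5f1 was thus called lower in D2 in the separate lines and higher in the repeated libraries, and whether the series differ was not tested. The other windows called higher here showed no such difference in separate lines, with -0.03 for Sox2 (SE 0.05, adjusted p = 0.57), 0.04 for Klf4 (SE 0.05, adjusted p = 0.527) and 0.00 for Tbx3 (SE 0.05, adjusted p = 0.948). In that series line B6 5-1 held 240 and line D2 5-5 held 228 CPM in the Sox2 window.

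**Figure D3:**
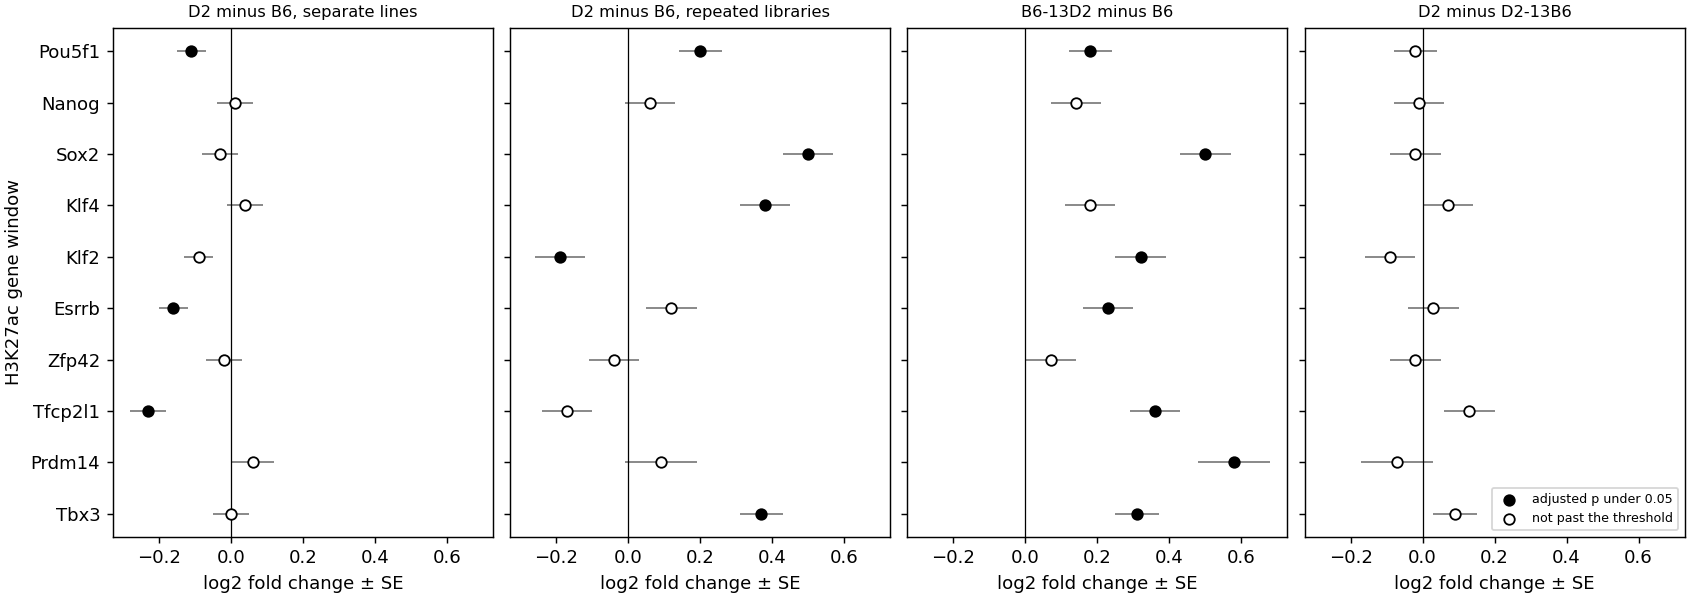
Log2 fold change of H3K27ac with its standard error in each of the 10 gene windows, in 4 contrasts, with filled points called at an adjusted p under 0.05. The points lie close to 0 in separate lines and in D2 minus D2-13B6, and to the right of 0 for all 10 genes in B6-13D2 minus B6, where Nanog and Zfp42 turn below 0 with scaling by library totals.

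By region, 38 of the 86 regions of the 10 genes that passed the filter on low counts were called between D2 5-5 and B6 5-1, 26 higher and 12 lower. Over all 192158 regions tested 28.1% were called, 14.7% higher and 13.4% lower. The members' median was 0.21, against -0.05 over all regions. Their regions were also wider, with a median of 1571 bp against 547 bp in the whole list, and the part of width in these counts was not tested. Leaving out 1 sample at a time gave 19 to 44 called regions: 20 without B6 replicates 1 and 2, 21 without B6 replicate 3 and 19 without D2 replicates 1 and 3. Scaled by library totals, 38 were called, 22 higher and 16 lower. That scaling moved the median of all regions by -0.15, and the share of higher regions among all those called from 52.3% to 40.3%.

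Pou5f1 had 7 of 7 regions called. Its start region rose from 167 and 184 CPM in B6 to 235 and 214 CPM in D2 (0.36, SE 0.12, adjusted p = 0.0218). The 4 regions from 3.47 to 15.0 kb past the start were higher in D2 by 0.60 to 0.93 on the log2 scale, of which the last 3 lay over the neighbouring genes Tcf19 and Cchcr1. Regions 9.17 and 6.25 kb upstream were lower in D2, at -0.66 and -0.54. The window sum of Pou5f1 thus joined regions that changed in opposite directions. Nanog, with 4 regions, and Zfp42, with 6, had none called. Nanog's upstream region held 120 and 141 CPM in B6 and 157 and 143 CPM in D2, and its start region 73.7 and 85.6 against 98.2 and 88.1 CPM. Zfp42 held 49.8 and 53.7 CPM at its start in B6 and 62.9 and 57.3 CPM in D2, and 32.2 and 39.9 against 40.7 and 36.5 CPM in its intron. The lines overlapped in the Zfp42 intron and were separate but close in the other 3 regions, and no difference passed the test.

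Sox2 had 4 of 5 regions called, all higher in D2. The start region held 73.4 and 78.4 CPM in B6 and 123 and 116 CPM in D2 (0.66, SE 0.12, adjusted p = 3.1e-05). In the region 13.7 kb downstream of the start (chr3:34662403-34665875), whose centre is printed above and which overlaps the genes Sox2ot and Gm42693, values were 23.6 and 25.7 CPM in B6 and 46.0 and 38.9 CPM in D2. D2-13B6 was at the D2 level there, with 50 and 40.2 CPM, and B6-13D2 was too, with 45.4 and 42.4 CPM, so that B6 5-1 alone was low among the 4 lines. D2 differed from B6 by 0.80 (SE 0.14, adjusted p = 1.18e-05) and B6-13D2 from B6 by 0.84 (SE 0.14, adjusted p = 1.46e-05) on the log2 scale, while D2 against D2-13B6 gave -0.07 (adjusted p = 0.864).

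Klf4 was higher in D2 at its start (43.7 and 51.0 CPM in B6, 81.1 and 72.8 CPM in D2, a log2 difference of 0.71 with an adjusted p of 1.74e-05). A 381-bp region 9.4 kb upstream was also called, on low levels of 0.224 to 1.78 CPM. Klf2 had 2 upstream regions that moved apart. The one at 10.8 kb held 15.3 and 14.2 CPM in B6 and 26.2 and 24.4 CPM in D2 (0.77, adjusted p = 3.56e-05). The one at 7.76 kb (chr8:72310075-72312476), which carries the octamer printed above, held 38.3 and 45.7 CPM in B6 and 27.1 and 25.0 CPM in D2 (-0.67, SE 0.13, adjusted p = 0.000119). In that region D2-13B6 lay between them at 35.1 and 36.1 CPM, and B6-13D2 was at 49.9 and 44.7 CPM.

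Tbx3 had 5 of 6 regions called, all higher in D2. At 9.79 kb upstream H3K27ac was 9.63 and 10.1 CPM in B6, 6.98 and 8.03 in B6-13D2, 19.1 and 17.3 in D2 and 15.0 and 14.8 in D2-13B6. Both lines with a D2 background were above both with a B6 background, and D2 minus B6 was 0.90 (SE 0.16, adjusted p = 1.21e-05). Esrrb had 4 regions higher and 1 lower in D2. The intron region at 94.5 kb held 21.3 and 23.5 CPM in B6, 30.6 and 29.2 in B6-13D2, 42.3 and 40.0 in D2 and 34.6 and 35.7 in D2-13B6, an increase of 0.89 in D2 over B6 (SE 0.13, adjusted p = 7.8e-07). Prdm14 had 5 regions higher and 1 lower, with the largest change 3.5 kb upstream (0.95, adjusted p = 0.0101) at 1.75 to 5.77 CPM over all samples.

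Tfcp2l1 had 7 of 13 regions called, all lower in D2, while its window sum was not called (-0.17, adjusted p = 0.0608). In the region 7.18 kb upstream (chr1:118619885-118621638), whose centre is the first sequence printed above, H3K27ac was 27.8 and 31.7 CPM in B6 and 32.9 and 32.2 CPM in B6-13D2. It was 7.84 and 7.50 CPM in D2 and 11.2 and 8.49 CPM in D2-13B6. All samples of the lines with a D2 background were below all samples with a B6 background. The log2 difference of D2 from B6 was -1.94 (SE 0.16, adjusted p = 1.65e-13), and this call held in every alternative run. The congenic lines did not differ from their background strain there beyond the test: B6-13D2 minus B6 was 0.14 (SE 0.14, adjusted p = 0.563) and D2 minus D2-13B6 was -0.32 (SE 0.18, adjusted p = 0.364). The region 4.9 kb upstream (-0.83, adjusted p = 0.000402) and the one 62.4 kb past the start (-0.88, adjusted p = 8.33e-05) were lower as well. The 2 regions that held most of the window's H3K27ac were not called: the intron region at 18.4 kb had 238 and 270 CPM in B6 and 320 and 276 CPM in D2, and the start region 118 and 134 against 141 and 126 CPM.

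**Figure D4:**
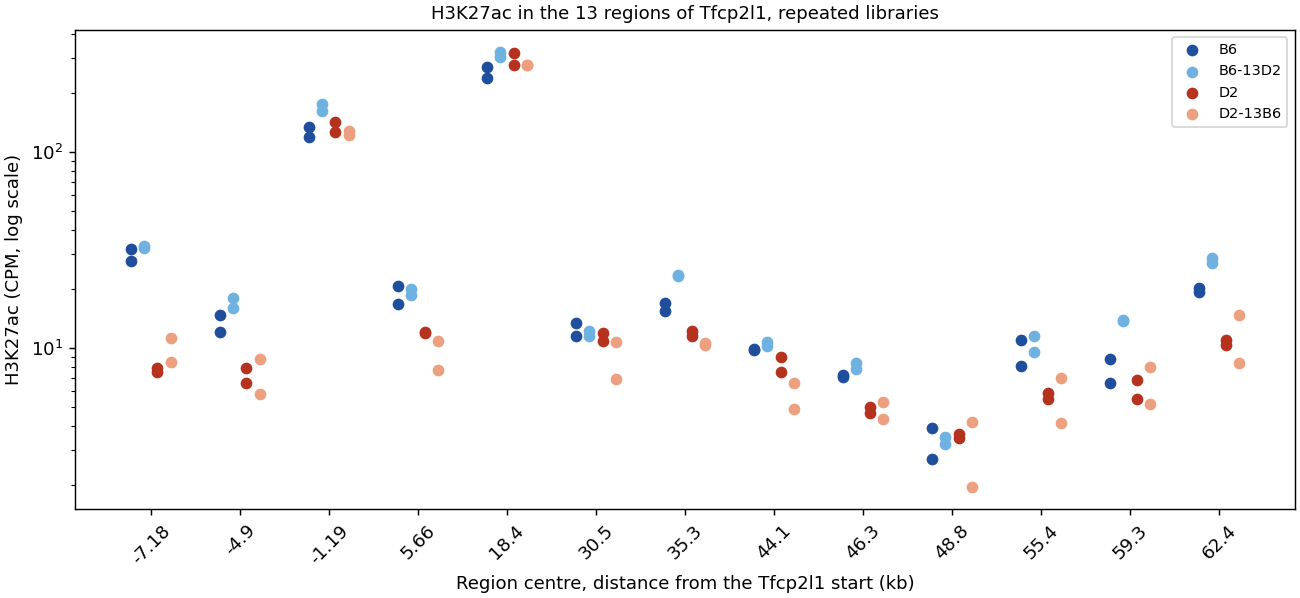
H3K27ac (CPM, log scale) in each of the 13 regions of Tfcp2l1 in the repeated libraries, ordered by the distance of the region's centre from the gene start, with each point a sample. At -7.18 kb the D2 and D2-13B6 points lie between 7.50 and 11.2 CPM and the B6 and B6-13D2 points between 27.8 and 32.9 CPM, while at 18.4 kb the B6 points, at 238 and 270 CPM, are the lowest and those of the other lines lie between 275 and 322 CPM.

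The upstream Tfcp2l1 region overlapped repeats: 68.8% of its bases are soft-masked in GRCm38, more than in 89.9% of all regions, where the median is 15.7% (18.4% over the 89 regions). How reads from such sequence were placed in each strain was not tested. In the separate lines this stretch lay inside a region of 42365 bp over the start of Tfcp2l1, which was not called.

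The separate lines and the repeated libraries share the lines B6 5-1 and D2 5-5, so their values are only set side by side. Of the 18 wide regions called in separate lines, 9 overlapped a region called in repeated libraries. Of the 38 regions called there, 12 overlapped a wide call. Over all regions, 49.3% were called in separate lines and 28.1% in D2 minus B6 of the repeated libraries. How often calls of the series overlap over all regions was not counted. These counts therefore cannot show whether the series agree more at these genes than elsewhere. The Sox2, Klf4 and Tbx3 windows, called in repeated libraries, were not called in separate lines. D2 minus B6 over the upstream Tbx3 regions was 0.38 in separate lines and 0.90 in repeated libraries on the log2 scale. Over the Esrrb intron regions centred at 94.3 and 94.5 kb it was 0.39 and 0.89. The wide region over the end of Tfcp2l1 had -0.39, and the called regions inside it had -0.68 and -0.88 in repeated libraries. These regions were picked because they were called in both series.

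The congenic line B6-13D2 was compared with B6 5-1 to ask what differs when a D2 segment of chromosome 13 lies on a B6 background. H3K27ac was higher in B6-13D2 at 7 of the 10 windows and lower at none. Over all gene windows 26.3% were called and 16.4% were called higher, and the median of the 10 was 0.27 against 0.00. This comparison and D2 minus B6 share the B6 samples.

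Prdm14 had 76.9 and 78.1 CPM in B6 and 120 and 111 CPM in B6-13D2 (log2 fold change 0.58, SE 0.10, adjusted p = 0.000337). Sox2 had 222 and 206 CPM in B6-13D2 against the B6 values above (0.50, SE 0.07, adjusted p = 3.97e-05). For both genes each B6-13D2 sample was above each B6 sample. Tfcp2l1 had 527 and 561 CPM in B6 and 713 and 684 CPM in B6-13D2 (0.36, SE 0.07, adjusted p = 0.00134), with 500 and 463 CPM in D2 and 467 and 416 CPM in D2-13B6. Klf2 had 554 and 534 CPM in B6-13D2 (0.32, SE 0.07, adjusted p = 0.0018), and 418 and 398 CPM in D2-13B6. In 5 of the 10 windows, those of Tfcp2l1, Klf2, Prdm14, Esrrb and Nanog, both B6-13D2 samples were above every sample of the other 3 lines, which held for 16.6% of all windows. The values ran from 684 against at most 561 CPM at Tfcp2l1 to 273 against at most 271 CPM at Nanog, whose difference from B6 turned below 0 under library totals (-0.02). Tbx3 (294 and 282 CPM, 0.31, adjusted p = 0.00177), Esrrb (849 and 892 CPM in B6, 1040 and 999 in B6-13D2, 0.23, adjusted p = 0.0188) and Pou5f1 (296 and 279 CPM, 0.18, adjusted p = 0.0478) were also called. Nanog (241 and 264 CPM in B6, 282 and 273 in B6-13D2), Klf4 and Zfp42 (111 and 122 against 120 and 123 CPM) were not called, with log2 differences of 0.14, 0.18 and 0.07.

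These calls rested on scaling and on single samples to different degrees. Scaling by library totals moved the median of all windows by -0.16, and the share of higher windows among those called over all genes from 62.3% to 23.6%. Under it Prdm14 (0.42), Sox2 (0.34), Tfcp2l1 (0.20), Klf2 (0.17) and Tbx3 (0.15) were still called higher, Esrrb (0.07) and Pou5f1 (0.02) were not, and Nanog (-0.02) and Zfp42 (-0.09) were below 0. Leaving out B6 replicates 1 and 2 left 2 of the 10 windows called and leaving out B6-13D2 replicates 1 and 3 left 3. The Sox2 and Prdm14 calls held in every alternative run. Fibroblast markers, genes of feeder cells, moved with this contrast: of 6, 4 were higher in B6-13D2 (Col1a1, Col3a1, Prrx1 and Twist1) and 4 were higher in D2, none was at 0, and their summed H3K27ac was 95.4 to 105 CPM in B6, 149 to 159 in B6-13D2, 149 to 155 in D2 and 115 to 149 in D2-13B6. Their part in the result was not tested. The 10 genes had 2910 to 3100 CPM in B6 and 3570 to 3720 CPM in B6-13D2 when summed.

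By region, 17 of 86 were called in B6-13D2 minus B6, all higher, where 13.0% of all regions were called and 7.60% were called higher. Under library totals, which moved the share of higher regions among those called over the whole table from 58.5% to 38.5%, 19 of the members' regions were called, 16 higher and 3 lower. The 17 lay in Esrrb (4), Tfcp2l1 (4), Prdm14 (4), Sox2 (2), Tbx3 (2) and Klf4 (1). Prdm14 rose 4.86 kb upstream from 4.16 and 3.70 CPM to 10.1 and 7.38 CPM (1.16, SE 0.21, adjusted p = 9.97e-05), at its start from 25.3 and 28.8 to 41.0 and 39.0 CPM (0.58, SE 0.13, adjusted p = 0.00172), and 22.8 kb past the start from 9.93 and 11.3 to 21.4 and 17.8 CPM (0.92, SE 0.16, adjusted p = 7.78e-05). The Tfcp2l1 intron region at 35.3 kb (chr1:118662389-118664020), whose centre carries the ESRRB motif printed above, held 15.3 and 16.9 CPM in B6, 23.5 and 23.2 in B6-13D2, 12.1 and 11.5 in D2 and 10.5 and 10.3 in D2-13B6. It was thus higher in B6-13D2 than in B6 (0.55, SE 0.14, adjusted p = 0.00582) and lower in D2 (-0.43, SE 0.15, adjusted p = 0.0293). The region 62.4 kb past the Tfcp2l1 start did the same, with 0.50 (adjusted p = 0.0229) in B6-13D2. Esrrb rose in 4 intron regions, at 72.4 kb (1.10 and 1.46 CPM in B6, 2.23 and 2.77 in B6-13D2), 94.5 kb, 103 kb (39.5 and 42.2 against 55.1 and 51.2 CPM) and 105 kb (12.9 and 16.2 against 20.2 and 20 CPM), by 0.39 to 0.99 on the log2 scale. Its region of highest level, at 142 kb, was not among them. Tbx3 rose past its start, from 83.5 and 90.5 to 121 and 111 CPM at 11.4 kb (0.42, adjusted p = 0.0153) and from 31.4 and 32.6 to 45.6 and 47.5 CPM at 15.8 kb (0.54, adjusted p = 0.00221), while its start region overlapped, with 85.4 and 97.2 against 98.2 and 92.4 CPM (0.07, SE 0.12, adjusted p = 0.786). Leaving out 1 sample gave 4 to 25 called regions, with 4 without B6 replicates 1 and 2 or without B6-13D2 replicates 1 and 3, 10 without B6 replicate 3 and 11 without B6-13D2 replicate 2.

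**Figure D5:**
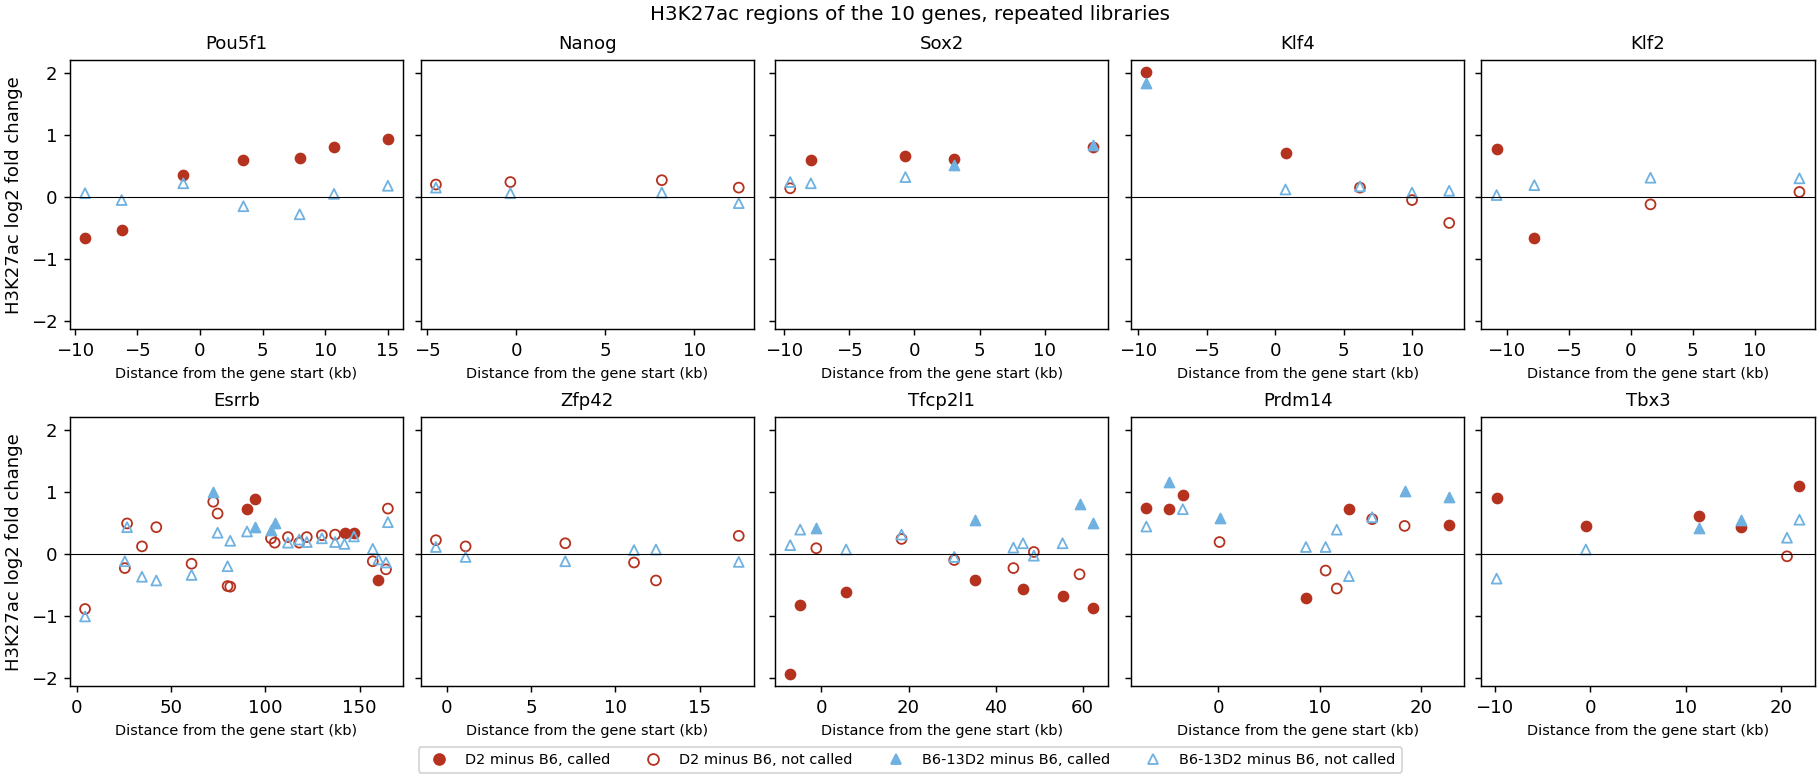
Log2 fold change of H3K27ac in every tested region of the 10 genes against the distance of its centre from the gene start (kb), for D2 minus B6 (circles) and B6-13D2 minus B6 (triangles), filled where called. Tfcp2l1 circles lie below 0 at 7 called regions while its called triangles lie above 0, and Nanog and Zfp42 have no filled symbol.

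The reciprocal comparison, D2 5-5 against D2-13B6, asks what differs with a B6 segment of chromosome 13 on a D2 background. The 2 segments have different ends in the labels. No window of the 10 was called by edgeR and none had an unadjusted p under 0.05, with log2 differences from -0.09 to 0.13. DESeq2 also called 0, and counting every library as its own sample gave 1. Over all gene windows 16.5% were called. Of the regions 2 of 86 were called, against 6.67% of all regions and 12 of 86 at an unadjusted p under 0.05. They were the Klf2 region 7.76 kb upstream (-0.45, SE 0.14, adjusted p = 0.0343) and the Esrrb region at 90.3 kb (0.60, SE 0.17, adjusted p = 0.0185). In the latter D2 replicates 1 and 3 held 16.1 CPM and D2 replicate 2 held 11.5 CPM, against 9.56 and 9.16 CPM in D2-13B6. Neither call was firm, since the Klf2 call was lost in 10 alternatives (adjusted p 0.0522 to 0.361) and the Esrrb call in 5 (0.0608 to 0.585). Without D2-13B6 replicate 1, the library that stood apart, 11 regions were called.

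Whether these contrasts differed from each other was tested as an interaction, (B6-13D2 minus B6) minus (D2 minus D2-13B6). Since the segments differ in their ends as well as in background, and each congenic genotype is 1 line, these cannot be told apart in it. It was called for 3 of the 10 windows, Prdm14 (0.66, SE 0.14, adjusted p = 0.00379), Sox2 (0.52, SE 0.09, adjusted p = 0.00106) and Klf2 (0.42, SE 0.10, adjusted p = 0.00573), where 18.4% of all windows were called. For Prdm14 the log2 difference was 0.58 in B6-13D2 minus B6 and -0.07 in D2 minus D2-13B6. Its D2-13B6 samples lay apart, 73.0 CPM in replicate 1 and 97.6 CPM in replicates 2 and 3, with 79.5 and 85.5 CPM in D2. For Sox2 the D2-13B6 samples were at 228 and 208 CPM and the D2 samples at 217 and 212 CPM. Of the regions 6 of 86 were called, 5 with a positive value and 1 with a negative one, where 5.30% of all regions were called, and 14 were called without D2-13B6 replicate 1. Scaling by library totals moved the share of positive values among all those called from 68.4% to 25.8% for windows and from 74.2% to 48.7% for regions. Under it the members had 3 windows called, all positive, and 9 regions, 5 positive and 4 negative. The Sox2 region 13.7 kb downstream had 0.91 (SE 0.19, adjusted p = 0.00168), and 0.82 (adjusted p = 0.0502) without D2 replicate 2.

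At the depth of the H3K9me3 libraries, 22 of the 89 regions could be tested in separate lines and 53 in repeated libraries. The share called was 31.8% in separate lines, near the 34.7% of all regions. In B6-13D2 minus B6 it was 1.89%, near the 1.69% of all regions. The window sums of Nanog in the repeated libraries were 35.1, 30.4 and 33.8 CPM in B6, 18.1 and 15.7 in B6-13D2, 21.1 and 20.7 in D2 and 20.1, 24.2 and 28.4 in D2-13B6, and all 3 B6 libraries were above those of the other 3 lines. The edgeR difference was -0.97 in B6-13D2 minus B6 (adjusted p = 0.178) and -0.66 in D2 minus B6 (adjusted p = 0.125), and neither was called. Pou5f1 held 24.2 to 31.2 CPM in B6, 24.4 and 26.4 in B6-13D2, 22.3 and 28.4 in D2 and 33.4 to 39.4 in D2-13B6. In separate lines Zfp42 held 7.60, 8.43 and 10.7 CPM in B6 and 18.9, 14 and 9.86 CPM in D2, which overlapped. In separate lines 22 of the 89 regions passed the filter and 7 were called, 3 higher and 4 lower in D2, where 34.7% of all regions were called. DESeq2 called 2, both lower, and a mean of at least 20 counts left 0. The share of H3K9me3 counts in the 5000 strongest regions of the table moved with this contrast, at 26.6% to 31.9% in the B6 and 21.7% to 24.9% in the D2 libraries, and its part in the result was not tested. No window was called by edgeR or DESeq2, 1 had an unadjusted p under 0.05, and 20% of all windows were called. The upstream Tfcp2l1 region held 29.6, 9.79 and 35.9 CPM of H3K9me3 in the B6 lines and 4.94, 9.98 and 6.76 CPM in the D2 lines (-1.75, SE 0.35, adjusted p = 0.000118). B6 replicate 2 was at the level of the D2 lines, so the groups overlapped. In that region both marks were lower in D2 than in B6, although the H3K27ac values come from the other series. Repeated H3K9me3 libraries gave -1.09 (adjusted p = 0.0991) there. In Esrrb the intron region at 137 kb held 24.3, 17.4 and 28.7 CPM in B6 and 12.3, 11.9 and 8.27 CPM in D2 (-1.11, SE 0.29, adjusted p = 0.00228), with no overlap. The Esrrb regions at 94.5 and 160 kb were lower in D2 and those at 74.7 kb in Esrrb, 55.4 kb in Tfcp2l1 and 7.1 kb upstream of Prdm14 were higher. Leaving out B6 replicate 3 left 3 regions called and leaving out D2 replicate 3 left 4.

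In repeated H3K9me3 libraries 53 of 89 regions passed the filter. Between D2 5-5 and B6 5-1, 4 were called, all higher in D2, where 11.3% of all regions were called and 4.58% were called higher. They were a region 3.07 kb past the Sox2 start, 2 regions of Esrrb at 118 and 130 kb and the Tbx3 region at 11.4 kb, with log2 fold changes of 1.01 to 1.20 (adjusted p 0.0149 to 0.0467). DESeq2 called 0 of them, and 0 were called with no filter or without D2 replicate 2. Without B6 replicate 1 or 2 there was 1 call, and 2 without B6 replicate 3, D2 replicate 1 or either B6-13D2 replicate. The share of counts in the 5000 strongest regions moved with this contrast too, at 21.3% to 22.4% in B6 and 22% to 22.8% in B6-13D2, against 19.1% and 17.7% in D2 and 15.2% to 18.4% in D2-13B6. Its part in these calls was not tested. In the Tbx3 region H3K9me3 was 14.5, 9.13 and 12.5 CPM in B6 and 26.0 and 23.3 CPM in D2. In B6-13D2 minus B6, 1 of 53 was called, the Nanog start region, which fell from 21.1, 14.5 and 17.7 CPM to 8.90 and 4.74 CPM (-1.37, SE 0.36, adjusted p = 0.017). The D2 samples were at 9.85 and 10.1 CPM and D2-13B6 at 12.6, 14.2 and 21.1 CPM there. That call was lost without B6-13D2 replicate 2 (-0.98) and without B6 replicate 1 (adjusted p = 0.15), and over all regions 1.69% were called. It was also lost with the DESeq2 test, with no filter, with a mean of at least 20 counts and with the replicate block. In D2 minus D2-13B6 and in the interaction, 0 of 53 regions were called by edgeR and by DESeq2, with 4 and 1 at an unadjusted p under 0.05, against 2.2% and 0.389% of all regions called. No window of the 10 was called by edgeR or DESeq2 in the repeated libraries in D2 against B6 (5.78% of all windows), in B6-13D2 against B6 (0.179%), in D2 against D2-13B6 (0.0919%) or in the interaction (0.0153%), with 1, 1, 1 and 0 at an unadjusted p under 0.05.

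The other genes of the network were taken from lists of the wider naive network, of LIF and WNT signalling and of formative and primed cells. In B6-13D2 minus B6, 8 of 20 windows of the wider naive network were higher and 2 lower (median 0.14), where 26.3% of all windows were called and 16.4% were called higher. Among the higher ones were Nr5a2 (0.58, adjusted p = 0.00028), a nuclear receptor, and Klf5 (0.48, adjusted p = 7.27e-05). Dnmt3l (-0.42) and Lin28a (-0.37) were the 2 lower ones. Of 15 genes of LIF and WNT signalling, 10 were higher and 2 lower in that contrast (median 0.24), with the receptor subunits Lifr at 0.75 (adjusted p = 3.34e-07) and Il6st, on chromosome 13, at 0.69 (adjusted p = 3.32e-06) and Stat3, the factor they activate, at -0.01 (adjusted p = 0.946). With library totals, which cut the share of higher windows among all those called from 62.3% to 23.6%, the wider network had 6 higher and 4 lower (median -0.01, against -0.16 over all windows) and the signalling genes 6 higher and 2 lower (median 0.08). Fibroblast markers moved with both lists in this contrast, with 4 of 6 higher and a summed H3K27ac of 95.4 to 105 CPM in B6 and 149 to 159 CPM in B6-13D2, and in D2 minus B6 with 4 of 6 higher and 149 to 155 CPM in D2. Their part in these counts was not tested. In D2 minus B6, repeated libraries, 4 of 20 windows of the wider network were higher and 8 lower (median -0.06), and 8 and 5 of the 15 signalling genes, with Socs3, a feedback inhibitor, at 0.79 (adjusted p = 3.61e-08), where 45.8% of all windows were called and 24.0% were called higher. In D2 minus D2-13B6 the wider network had 0 higher and 5 lower, Nr0b1 at -0.76 and Gbx2 at -0.72 among them, where 16.5% of all windows were called and 10.5% were called lower. Nr0b1 lies on chromosome X, where the median over all H3K27ac regions in this contrast was -0.15, against 0.00 over all chromosomes. In the interaction it had 9 called with a positive and 1 with a negative value, where 18.4% of all windows were called, and 5 and 1 with library totals. The scaling of the lists was added after the data were seen.

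For each of the 10 genes, the protein-coding gene with no overlapping window whose H3K27ac followed its level most closely was found by Pearson's r over the 12 repeated libraries, among 19292 to 19294 genes. The libraries share their line and their depth across genes, so these values are a description. Tbx3 was most like Otx2, a homeobox factor of formative and primed cells (r = 0.991), and Tfcp2l1 most like Slc37a1 (0.993). Esrrb was paired with Tigd2 (0.989), Klf2 with Tdrd12 (0.987), Sox2 with Shf (0.986), Klf4 with Odc1 (0.972), Pou5f1 with Ift52 (0.969) and Prdm14 with Patj (0.955). The lowest values were those of Nanog, whose closest gene was the agouti gene a (0.953), and Zfp42, with Dph6 (0.922).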

How the data were processed

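The deposited tables hold raw read counts per region, made by the authors for each library, from alignments without duplicates per the file headers. Per the submitters' processing notes, Trimmomatic 0.39, HISAT2 2.2.1, MACS 1.4.2, bedtools and edgeR were named with build mm10, without role or order. How regions were merged and how reads in repeats were placed are not given in the sources used here. Of the tables' columns, 2 matched no sample and were not used.

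Counts were tested with edgeR 4.0.16 (R 4.3.3): TMM scaling, filterByExpr (minimum count 10, minimum total 15), glmQLFit and glmQLFTest, two-sided, with Benjamini-Hochberg adjustment over all tested regions or gene windows of a table and a threshold of 0.05. The groups compared were fitted alone for separate lines, and the 4 lines together for repeated libraries. Pairs of libraries of a group with a chi-square per degree of freedom under 1 (0.9056 to 0.9773; other pairs at least 1.027), over regions with at least 40 counts, were summed. CPM were scaled separately for regions and windows. Numbers for a region's place are kb from its centre to the gene start. Named regions were start regions, those of the most H3K9me3 and, per gene and contrast, the largest called changes whose groups do not overlap (up to 3 in separate lines and 2 elsewhere); Pou5f1, Tfcp2l1 and Tbx3 regions beyond these, and interaction calls whose lines overlap, were chosen after their values were seen. Alternatives were DESeq2 1.42.0, its size factors, library totals, other filters, no 10 kb extension, every library as its own sample, a replicate block, and leaving out each sample; a group then left with 1 sample is assumed to vary like the others. The edgeR and DESeq2 tests were tried on simulated counts of single regions, in D2 minus B6 and without summed libraries. Gene windows, the congenic contrasts and the interaction were not simulated. The members and lists were chosen with earlier results of these data known.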

Additional observations from a re-analysis of the deposited data

Results flagged for a closer look

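The contrasts B6-13D2 minus B6 and D2 minus D2-13B6 differed, by the interaction test of edgeR's quasi-likelihood fit, at 3 of the 10 H3K27ac gene windows, where 18.4% of all windows were called, and at 6 of 86 regions (6.98%), where 5.30% of all regions were called. The share of regions is near that of the whole table. The gene windows were those of Prdm14 (0.66 on the log2 scale), Sox2 (0.52) and Klf2 (0.42). Klf2 was lost without B6 replicates 1 and 2 (adjusted p = 0.0762) or B6-13D2 replicates 1 and 3 (0.0517). The regions were those of Sox2 at 13.7 kb (0.91), Klf2 at -7.76 kb (0.63), Esrrb at 42.2 kb (-1.16) and Prdm14 at 18.4 kb (1.56), at its start, centred at 0.126 kb (0.69), and at -4.86 kb (1.08).

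Klf2 at -7.76 kb was lost without the filter and on leaving out B6 replicates 1 and 2 or any sample of B6-13D2 or D2 (adjusted p 0.0627 to 0.243). Prdm14 at 18.4 kb held 4.70 and 4.52 CPM in B6-13D2, 2.36 and 2.13 in B6, 3.00 and 3.30 in D2, and 2.95 in replicate 1 against 5.60 in replicates 2 and 3 of D2-13B6. Without D2-13B6 replicates 2 and 3 its value was 0.95 (adjusted p = 0.141), and at -4.86 kb it was 0.75 (0.145). Esrrb at 42.2 kb lay at 2.33 to 5.11 CPM over all samples and its call was lost in 10 alternatives, with adjusted p from 0.0542 to 0.281.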

How the results depend on the processing

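Values are counts of called members. No called value of a named gene or region changed sign in any alternative. Over 75 named results, each a gene window or region in a given contrast, 890 alternative values stayed on the side of the threshold they had and 206 lost the call. With the DESeq2 test, separate lines had 11 H3K27ac and 2 H3K9me3 regions (0 higher and 2 lower), and 0 were left in H3K27ac of D2 minus D2-13B6 and in repeated H3K9me3 of D2 and of B6-13D2 against B6. DESeq2 size factors gave 1 and library totals 5 regions in D2 minus D2-13B6. Without the 10 kb extension, which leaves fewer regions, H3K27ac regions numbered 10 in separate lines, 17 in repeated D2 against B6, 8 in B6-13D2 against B6, 1 in D2 against D2-13B6 and 2 in the interaction. A mean of at least 20 counts gave 6 and 10 H3K27ac regions in the last 2 contrasts and, for H3K9me3, 0 in separate lines, 2 in repeated D2 minus B6 and 0 in B6-13D2 minus B6. No filter gave 0 and 3 in the last 2 H3K27ac contrasts and 0 and 0 in the repeated H3K9me3 contrasts with B6. With every library its own sample, which adds samples to the fit, H3K27ac regions numbered 34 in B6-13D2 minus B6, 12 in D2 minus D2-13B6 and 24 in the interaction, and windows 1 and 8 in the last 2. Where no reason is given, the cause was not tested.

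Replicate numbers did not pair the samples: same-number deviations correlated at -0.074 to 0.057 and -0.057 to -0.007 in separate lines, and at -0.062 to 0.068 and -0.057 to 0.163 in repeated libraries. With every library its own sample and the replicate block, the counts were 34, 12 and 25 regions and 1 and 8 windows. The block alone gave 0 H3K9me3 regions in B6-13D2 minus B6.

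On leaving out 1 sample at a time, H3K27ac windows ranged from 2 to 3 in separate lines and, in repeated libraries, from 3 to 6 (D2 against B6), 2 to 8 (B6-13D2 against B6), 0 to 1 (D2 against D2-13B6) and 2 to 5 (interaction). H3K27ac regions ranged from 12 to 19, 19 to 44, 4 to 25, 0 to 11 and 1 to 14 in the same order. H3K9me3 regions ranged from 3 to 9, 0 to 4, 0 to 1, 0 to 0 and 0 to 0, and windows from 0 to 1 in separate lines and 0 to 0 elsewhere.

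The libraries limit what can be said. Each congenic genotype is 1 line, with 2 samples per line for H3K27ac after near-identical libraries were joined. H3K9me3 totals of 1487862 to 2559262 counts leave 22 and 53 of the 89 regions testable, so a difference at the others was not detectable at this depth. The wide regions of the separate lines join the genes with their neighbours.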

Other observations

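Formative and primed genes, which mark the state after naive pluripotency, held less H3K27ac per kb than the naive regulators. Their median density in repeated libraries was 1.79 CPM per kb in B6 and 2.88 in D2, against 16.0 and 16.4 for the 10 naive regulators. In D2 minus B6, 6 of 11 windows were higher and 0 lower, with a median of 0.68 against 0.00 over all windows, of which 45.8% were called and 24.0% were called higher. Fibroblast markers moved with this contrast: 4 of 6 were higher in D2, with a summed H3K27ac of 95.4 to 105 CPM in B6 and 149 to 155 CPM in D2, and their part in the result was not tested. Otx2 rose by 1.16 (SE 0.09, adjusted p = 1.4e-08, edgeR) and Lef1, a WNT effector, by 1.17 (adjusted p = 3.08e-08). In B6-13D2 minus B6, where 26.3% of all windows were called and 16.4% were called higher and 4 of 6 fibroblast markers were higher too, 5 of the 11 were higher, Otx2 (0.99), Zic2 (0.66), Zic5 (0.63), Foxd3 (0.69) and Cdh2 (0.39), and Lef1 was at -0.24 (adjusted p = 0.0932). With library totals 5 were higher and 1 lower. In separate lines 4 of 10 tested were higher in D2 and 1 lower, where 54.0% of all windows were called.

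In D2 minus B6, repeated libraries, where 45.8% of all windows were called and 24.0% were called higher, primitive endoderm genes had 1 of 7 windows higher and 2 lower, trophoblast genes 2 of 6 higher and 1 lower, and genes of 2-cell-like cells 0 of 5 higher and 2 lower. In B6-13D2 minus B6 these were 0 and 1, 2 and 1, and 0 and 1, where 26.3% were called, and with library totals 0 and 3, 2 and 1, and 0 and 2. In separate lines, where 54.0% of all windows were called and 28.2% were called lower, the wider naive network had 4 of 20 windows higher and 11 lower in D2, genes of LIF and WNT signalling 0 of 15 higher and 6 lower, and fibroblast genes 0 of 5 higher and 1 lower. With library totals, which moved the share of higher windows among all those called from 47.9% to 63.4%, these were 6 and 8, 5 and 6, and 1 and 1, and the formative list had 4 higher and 0 lower.

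The region 9.17 kb upstream of Pou5f1, lower in D2, had the highest soft-masked share of the 89 regions, 82.6%.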
